A study of Mus musculus with 4 samples.

Results

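The interleukin-6 (IL-6) family comprises cytokines that signal through the shared receptor chain gp130, and its transcripts were followed here in bone marrow stromal cells of mature and elderly mice. Its members were chosen by name, as 5 ligand genes (Il6, Il11, Lif, Osm and Clcf1) and 5 receptor genes (Il6st, which encodes gp130, Il6ra, Il11ra1, Lifr and Osmr), and the deposited transcript counts were summed per gene. These are 10 of 37310 genes, and 9 of them entered the comparison of ages among 22214 genes tested. Il11 had too few counts.

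RNA was sequenced from male wild-type C57Bl/6 mice in 4 libraries, 2 from mature mice aged 3 months and 2 from elderly mice aged 24 months. Both ages were unmodified animals. The methods state that RNA of 3 or 4 mice in a group was pooled, whereas the sample titles name numbered mice. Whether a library is a single mouse or a pool is not stated. The spread between libraries therefore cannot be read as the spread between mice. The study's methods describe a sort for marrow cells that carry the leptin receptor (LEPR) but lack Ter119, CD31 and CD45, the markers of red cells, vessels and leukocytes (Lin-LEPR+), a population said to hold the skeletal stem and progenitor cells of adult marrow, whereas the sample labels name whole marrow. The libraries held between 10472117 and 15650518 counts, and the comparison asked which transcripts of these cells differ with age.

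Cytokines of this family signal through gp130, alone or together with the LIF receptor or the oncostatin M receptor. Some of them, such as IL-6 and IL-11, first bind a receptor chain of their own. The assembled receptor activates JAK kinases, which phosphorylate gp130 and the transcription factor STAT3, and SOCS3 ends the signal as a feedback inhibitor. In bone, IL-6, IL-11, LIF and oncostatin M act on cells of the osteoblast lineage and, through them, on the formation of osteoclasts, and marrow stromal cells both make and answer to members of the family. Soluble IL-6 receptor, released from the cell surface by proteases, lets IL-6 act on cells that carry gp130 alone.

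The ligand Osm was higher in elderly vs. mature libraries, and it was the single member that passed the test, out of 9 tested. Il6 and Il6ra were also counted at higher levels in both elderly libraries, but neither passed at the level of the gene. The 3 receptor chains of the signalling complexes, Il6st, Lifr and Osmr, were counted at far higher levels than any ligand and did not pass. Over all genes tested, 2.36% passed in either direction and 1.94% passed as higher in elderly libraries. The median log2 fold change over all genes was -0.01.

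**Figure D1:**
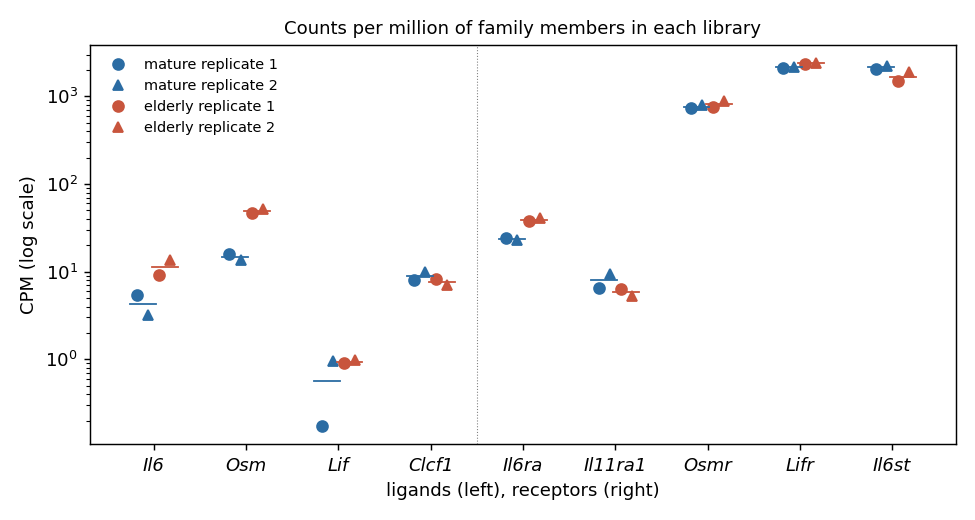
CPM (counts divided by the TMM-scaled library size; log axis) of the 9 tested members in each library, with ligands on the left and receptors on the right. Circles and triangles are replicates 1 and 2, blue marks mature and red elderly libraries, and short lines are the means of each age. Osm, Il6, Il6ra and Lifr have both elderly points above both mature points, and Il6st, Lifr and Osmr stand above all other members.

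Oncostatin M, encoded by Osm (chr11:4136423-4141029 in NCBI Build 37, mm9, plus strand), is made in marrow mainly by macrophages, neutrophils and T cells and signals through gp130 with either the LIF receptor or the oncostatin M receptor. Its counts were 182 and 158 in mature and 517 and 799 in elderly libraries. These equal 15.7 and 13.6 CPM in mature libraries and 46.6 and 52.0 CPM in elderly libraries, where CPM are counts relative to a library size multiplied by its TMM normalization factor. Both elderly libraries lay well above both mature libraries, with a mean of 14.7 ± 1.5 CPM (SD, n = 2) in mature vs. 49.3 ± 3.81 CPM (SD, n = 2) in elderly libraries. The log2 fold change was 1.75 with a standard error of 0.24 and a 95% interval from 1.23 to 2.26, which is a 3.36-fold higher level (edgeR quasi-likelihood test, Benjamini-Hochberg adjusted p = 0.0027). Without elderly replicate 1 the same test gave an adjusted p of 0.611 at a log2 fold change of 1.85, and without elderly replicate 2 it gave 0.605 at 1.67. Over the whole table, that test called 0 genes without either elderly library, with 1465 and 1627 genes at an unadjusted p under 0.05, whereas DESeq2 called 319 and 422 genes and called Osm in both. All Osm counts fell on the transcript Osm-001, and the transcript fit gave a log2 fold change of 1.81 (SE 0.28, edgeR adjusted p = 4.8e-04).

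Some marker lists of blood cells were higher in the elderly libraries, as Osm was, and others were not. The neutrophil markers, summed over the list of 10, stood at 2117 and 1209 CPM in mature and 4534 and 4404 CPM in elderly libraries. Of the 9 tested, 6 were called higher in elderly libraries, beside 1.94% of all genes tested, and 9 had a log2 fold change above 0. The sum over 10 monocyte and macrophage markers was 635 and 429 CPM in mature and 1001 and 1127 CPM in elderly libraries. Of 9 tested, 5 were called higher (Lyz2, Mpeg1, C1qa, C1qb and C1qc), and 7 had a log2 fold change above 0. Lyz2 made up most of this sum, which without it was 135 and 117 CPM in mature and 234 and 285 CPM in elderly libraries. Of the other markers of this list, Cd68 had both elderly libraries below both mature ones (log2 fold change -0.62, edgeR adjusted p = 0.532), and Csf1r had 1.04 and 2.50 against 1.98 and 1.56 CPM. T cell markers summed to 4.15 and 5.86 CPM and to 14.3 and 8.66 CPM, with 0 of 5 tested called by edgeR, 2 at an unadjusted p under 0.05 and 1 called by DESeq2. The share of Osm that came from such cells was not tested. In bulk RNA, more cells of a type and more RNA per cell cannot be told apart.

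Il6 (chr5:30339701-30346508, plus strand) encodes interleukin-6, the founding ligand, which marrow stromal cells themselves secrete. It had 62 and 37 counts in mature and 101 and 208 counts in elderly libraries, or 5.36 and 3.19 CPM against 9.1 and 13.5 CPM. The ages did not overlap, but the spread within an age was wide relative to the mean, with means of 4.28 ± 1.54 CPM and 11.3 ± 3.13 CPM (SD, n = 2 each). The log2 fold change was 1.41 with a standard error of 0.37 and a 95% interval from 0.60 to 2.21, and it did not pass the adjustment over all genes (edgeR adjusted p = 0.0805, unadjusted p = 0.0025). The call changed with the processing. As 1 of 42413 transcripts tested, of which 1.66% passed, Il6-201 was called higher at a log2 fold change of 1.47 (SE 0.38, edgeR adjusted p = 0.0474), and DESeq2 on genes, which called 3.18% of them, gave an adjusted p of 0.0486. Without mature replicate 1 it passed at the gene level as well (log2 fold change 1.84, edgeR adjusted p = 0.0407). Over 14 alternatives the adjusted p of Il6 ran from 0.0014 to 0.611, and the log2 fold change stayed above 0, from 1.06 to 1.84.

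The Il6 promoter is shown because it carries, within 300 bases, motifs of several factor families that are known to drive this gene. It is given from RefSeq in build GRCm38.p6 (chr5:30012864-30013163, plus strand), from 250 bases before to 50 bases after the start site. Capitals mark, in order, TGANTCA (AP-1), GACGTCA (CRE), TTGCNNAA (C/EBP) and the NF-kB motif.

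Il6: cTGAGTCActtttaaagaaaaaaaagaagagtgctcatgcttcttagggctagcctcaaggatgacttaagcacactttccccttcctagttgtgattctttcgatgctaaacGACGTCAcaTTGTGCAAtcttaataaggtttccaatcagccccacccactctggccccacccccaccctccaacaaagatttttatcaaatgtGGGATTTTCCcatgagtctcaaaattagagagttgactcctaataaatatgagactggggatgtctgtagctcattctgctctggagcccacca

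The matches began at -249, -137, -128 and -44 relative to the start site. Both strands were searched, and the letters were chosen after this promoter had been seen. Of 32851 RefSeq promoters of the same length, 7.81% held the AP-1 letters, 3.21% the CRE letters, 10.8% the C/EBP letters and 8.46% the NF-kB motif. The STAT letters TTCNNNGAA, found in 8.30% of promoters, were in none of the 11 windows of the 8 members that matched the RefSeq table. Osm and Clcf1 were not matched.

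Lif, Clcf1 and Il11 could be measured only in part. Leukemia inhibitory factor, encoded by Lif (chr11:4157560-4172517, plus strand), which signals through gp130 and the LIF receptor, had 2 and 11 counts in mature and 10 and 15 counts in elderly libraries. The ages overlapped, and the log2 fold change of 0.74 had a 95% interval from -1.24 to 2.71 (edgeR adjusted p = 0.863). Cardiotrophin-like cytokine factor 1, encoded by Clcf1 (chr19:4214238-4223490, plus strand), signals through the CNTF receptor. Its 94 and 114 counts in mature and 92 and 109 in elderly libraries overlapped between ages, at a log2 fold change of -0.23 (SE 0.31, 95% interval from -0.90 to 0.45, edgeR adjusted p = 0.879). Interleukin-11, encoded by Il11 (chr7:4724669-4734460, minus strand), supports osteoblast formation and had 1 count in mature replicate 2, 1 in elderly replicate 1 and 0 in the other libraries. With 2 counts in all, Il11 was not tested, and no fold is given.

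**Figure D2:**
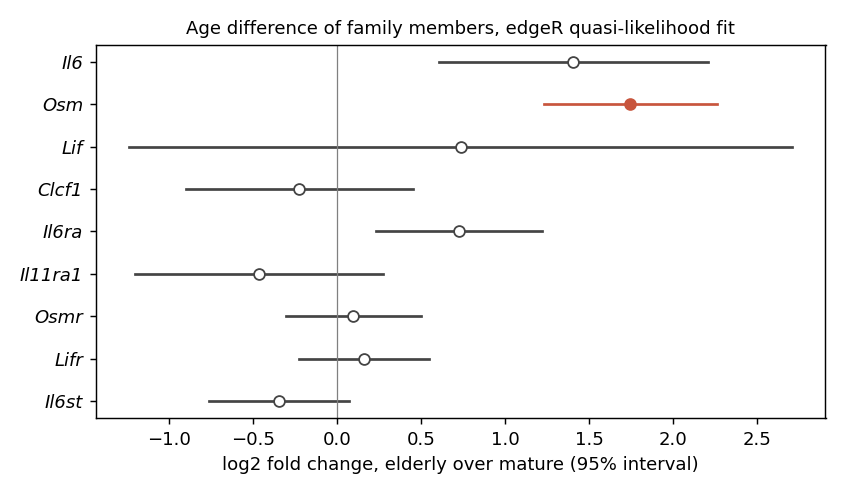
Log2 fold change of the 9 tested members, elderly over mature, with its 95% interval from the edgeR quasi-likelihood fit. The filled red point is the member that passed at an adjusted p under 0.05 (Osm), open points did not pass, and the interval of Lif, from -1.24 to 2.71, is the widest of the 9.

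Of the ligand-binding receptor chains, Il6ra lay above its mature values in both elderly libraries and Il11ra1 lay below them, and neither passed the test. Il6ra (chr3:89673246-89717084, minus strand) encodes the chain that binds IL-6 before gp130 joins, in a membrane or a soluble form. It had 283 and 267 counts in mature and 421 and 624 counts in elderly libraries, or 24.5 and 23.0 CPM against 38.0 and 40.6 CPM. The gap between ages was wider than the spread within them, at a log2 fold change of 0.73 (SE 0.23, 95% interval from 0.23 to 1.22). The adjusted p was 0.162 in edgeR, against an unadjusted p of 0.0075. Neutrophils, monocytes and T cells are known to carry this receptor too, and their marker sums given beside Osm were also higher in both elderly libraries. Their part in the Il6ra values was not tested.

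Il11ra1 (chr4:41647021-41716347, plus strand) encodes the chain that binds IL-11. Its counts were 76 and 109 in mature and 70 and 81 in elderly libraries, and in CPM both elderly libraries lay below both mature ones (6.58 and 9.40 against 6.31 and 5.27). The log2 fold change of -0.47 had a 95% interval from -1.21 to 0.27 (edgeR adjusted p = 0.688). The value is uncertain, since 50.7% of the 40-base windows of its longest coding transcript (999 of 1970) occur also in Il11ra2, Gm13305 or Gm2002. The longer retained-intron transcript Il11ra1-010, which took 55.1% of the counts, was not searched.

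Il6st (chr13:113265216-113297068, plus strand), which encodes gp130, was the most abundant member in mature libraries per length. It had 24002 and 25599 counts in mature and 16578 and 28824 counts in elderly libraries, or 2077 and 2207 CPM against 1494 and 1876 CPM. Both elderly libraries lay below both mature ones after scaling, at a log2 fold change of -0.35 (SE 0.19). The 95% interval from -0.76 to 0.07 includes 0, and the edgeR adjusted p was 0.581.

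Osmr (chr15:6763577-6824313, minus strand) encodes the chain that pairs with gp130 for oncostatin M. Its counts of 8548 and 9164 in mature and 8378 and 13522 in elderly libraries equal 740 and 790 CPM against 755 and 880 CPM. The ages overlapped. The log2 fold change of 0.10 had a 95% interval from -0.31 to 0.50 (edgeR adjusted p = 0.926).

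Lifr (chr15:7079559-7147489, plus strand) encodes the chain used by LIF, by cardiotrophins and, with gp130, by oncostatin M. It had 24576 and 24912 counts in mature and 26211 and 37145 counts in elderly libraries, or 2126 and 2147 CPM against 2363 and 2417 CPM. The elderly libraries lay above the mature ones by little, at a log2 fold change of 0.16 (SE 0.18, 95% interval from -0.23 to 0.55, edgeR adjusted p = 0.834). Of the 9 members tested, 4 had both elderly libraries above both mature ones (Osm, Il6, Il6ra and Lifr), beside 22% of all genes tested, and 2 had both below (Il6st and Il11ra1), beside 18.9%. The 6 members whose ages did not overlap stand beside 40.9% of all genes tested.

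The Lifr gene yields a membrane receptor and a shorter form that ends before the membrane-spanning part, and the annotation holds a transcript for each. The sequences below show where the 2 transcripts part, in the annotation of GENCODE M1 (NCBI Build 37, plus strand). Both hold the exon at chr15:7134717-7134818, whose last 45 bases are printed in lower case. Capitals mark the bases after the junction, up to the stop codon in Lifr-202 (exon at chr15:7135067-7135335) and the first 45 bases of the next exon in Lifr-203 (chr15:7135566-7135733).

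Lifr-202: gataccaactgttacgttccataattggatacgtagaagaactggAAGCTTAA

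Lifr-203: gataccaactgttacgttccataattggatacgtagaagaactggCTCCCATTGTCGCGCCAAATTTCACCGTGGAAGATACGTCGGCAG

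Up to this junction the transcripts share 2152 coding bases, after which Lifr-202 has 5 further coding bases before its stop codon and Lifr-203 has 1127. Lifr-203 took 99.2% of the Lifr counts. Lifr-202, with 407 bases open to counting, 269 of them in its last exon, had 231 and 222 counts in mature and 200 and 213 in elderly libraries. Its share of the Lifr counts was 0.940% (95% Wilson interval from 0.827% to 1.07%) and 0.891% (0.782% to 1.02%) in mature and 0.763% (0.665% to 0.876%) and 0.573% (0.502% to 0.655%) in elderly libraries. The intervals cover counting error only, and both elderly shares lay below both mature ones. Per base open to counting, Lifr-202 stood at 13.5% and 12.8% of Lifr-203 in mature and 10.9% and 8.19% in elderly libraries. Only the last exon of Lifr-202 marks the short ending, and its other bases open to counting lie elsewhere. That exon lies between the 2 Lifr-203 exons named above, so unspliced Lifr-203 RNA would count there too. The part of such RNA in these shares was not tested. With 2 libraries per age an exact permutation test cannot give a p below 0.333. Lifr-202 itself did not pass the transcript fit (log2 fold change -0.25, SE 0.29, edgeR adjusted p = 0.910), nor did Lifr-203 (0.22, SE 0.22, adjusted p = 0.865).

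Levels of different members were compared as CPM per kilobase of the bases that belong to a single transcript, since other bases received no counts. On this scale Il6st had a mean over the 4 libraries of 367 (range 287 to 424), Lifr of 365 (343 to 390) and Osmr of 164 (153 to 182). The 3 chains of the gp130 complexes ranked above 99.4%, 99.4% and 98.2% of 14903 protein-coding genes. Il6st and Lifr overlapped over the libraries, and both lay above Osmr in all 4. Next came Osm at 21.3 (9.09 to 34.7), Il6ra at 9.43 (6.88 to 12.1), Il6 at 7.17 (2.93 to 12.5) and Clcf1 at 4.65 (3.95 to 5.48). Then came Il11ra1 at 2.72 (2.08 to 3.71), Lif at 1.36 and Il11 at 0.20. These ranges join libraries of both ages. Clcf1, Il11ra1, Lif and Il11 were counted over few or no coding bases, so their places here are not a measure of expression. Osm lay above Il6ra within each library, at 10.5 and 9.09 against 7.32 and 6.88 in mature and at 31.1 and 34.7 against 11.4 and 12.1 in elderly libraries. By the length of the longest transcript, Osm lay below Il6ra in the mature libraries and above it in the elderly ones. Per kilobase of the bases that belong to a single transcript, Il6 and Clcf1 changed places between the ages. Their means on that scale were 3.93 ± 1.41 and 5.01 ± 0.67 (SD, n = 2 each) in mature libraries. In elderly libraries the means were 10.4 ± 2.88 and 4.29 ± 0.47 (SD, n = 2 each), and their libraries overlapped in the mature mice only. All Clcf1 counts lay on noncoding transcripts, so this order does not compare the coding transcripts of the 2 genes. Within a library, the level of Il6st was 54.5 and 61.6 times that of Il6ra in mature and 25.3 and 29.7 times in elderly libraries. The level of Il6st over that of Lifr was 1.16 and 1.22 in mature and 0.753 and 0.924 in elderly libraries. By the length of the longest transcript it was 1.81 and 1.91 in mature and 1.17 and 1.44 in elderly libraries, with Il6st above Lifr in all 4, so the order of these chains depended on the length used. These ratios were chosen after their values were seen and are a description.

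Lepr, which marks the sorted cells, had 74183 and 65727 counts in mature and 45713 and 87711 counts in elderly libraries (log2 fold change -0.30, edgeR adjusted p = 0.670). The 12 LEPR stromal markers summed to 31569 and 32057 CPM in mature and 19361 and 27800 CPM in elderly libraries, and 7 of the 12 had both elderly libraries below both mature ones, beside 18.9% of all genes tested. Of these markers edgeR and DESeq2 called 0, with 3 at an unadjusted p under 0.05. Without Cxcl12, its most abundant gene, the sum was 19846 and 18344 CPM in mature and 12153 and 18583 CPM in elderly libraries, and the ages overlapped. The part of this list in the Il6st values was not tested. Per 1000 Lepr counts, Il6st had 324 and 389 counts in mature and 363 and 329 counts in elderly libraries, and the ages overlapped on that scale. Lifr had 331 and 379 against 573 and 423 counts per 1000 Lepr counts, and Osmr 115 and 139 against 183 and 154.

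**Figure D3:**
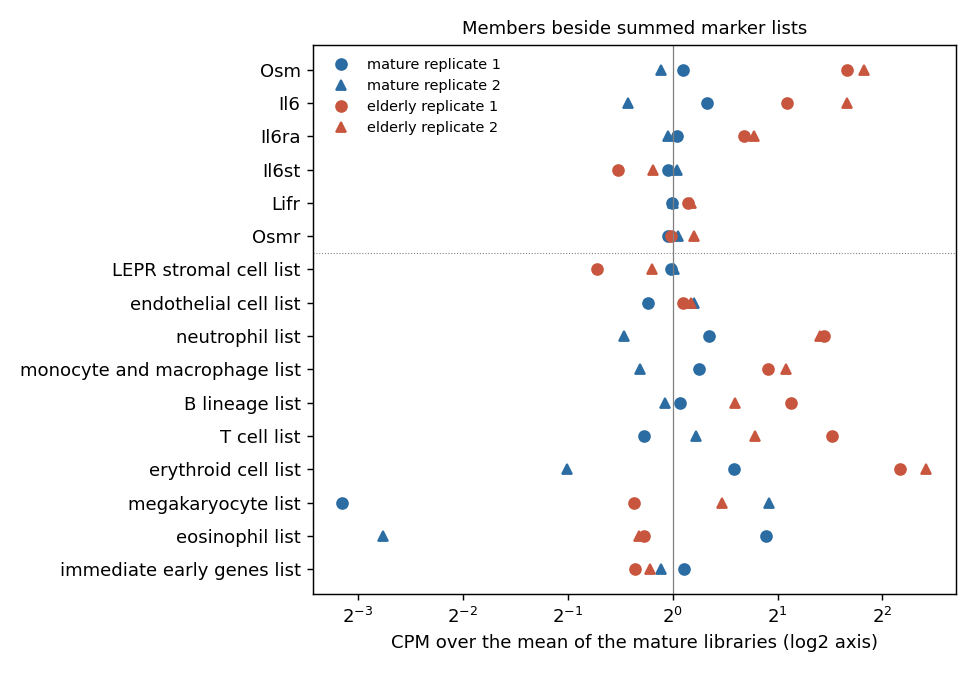
CPM of 6 members (above the dotted line) and summed CPM of marker lists (below it), each divided by the mean of the mature libraries, on a log2 axis. Osm, Il6, Il6ra and Lifr sit to the right of 1 in both elderly libraries. The endothelial, neutrophil, monocyte and macrophage, B lineage, T cell and erythroid lists do so too. Il6st sits to the left in both, as do the LEPR stromal cell, eosinophil and immediate early gene lists. Osmr and the megakaryocyte list have an elderly library on each side.

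Pan-leukocyte Ptprc, which encodes the CD45 protein used to exclude blood cells, had 4 and 1 counts in mature and 12 and 8 in elderly libraries, over only 152 bases open to counting. Erythroid markers summed to 197 and 65.3 CPM in mature and 588 and 702 CPM in elderly libraries, with 3 of 7 tested called higher. B lineage markers summed to 13.8 and 12.4 CPM against 28.7 and 19.8 CPM, and endothelial markers to 22.8 and 31.0 CPM against 28.9 and 30.5 CPM. In each of these 2 lists edgeR called 0, with 3 at an unadjusted p under 0.05, and DESeq2 called 0 B lineage markers and 1 endothelial marker. The megakaryocyte list varied between 13.6 and 227 CPM and the eosinophil list between 25.3 and 317 CPM within the mature libraries alone, and both tools called 0 in each, with 0 at an unadjusted p under 0.05. The immediate early genes, which respond to cell handling as well as to cytokines, stood at 39182 and 33686 CPM in mature and 28431 and 31358 CPM in elderly libraries, with 0 of 15 called by either tool and 1 at an unadjusted p under 0.05. Plasma cell markers summed to 89.1 and 73.9 CPM against 115 and 125 CPM, with 1 of 5 called higher, and osteoblast markers to 7105 and 6463 CPM against 2269 and 4179 CPM. Of 8 osteoblast markers, Col1a1 and Phex were called higher and Ibsp, which makes up most of the sum, lower, and without Ibsp the sum was 474 and 524 CPM in mature and 818 and 888 CPM in elderly libraries. Defining markers with 0 counts in every library included Fcgr1 (21 bases open to counting), Tek (58 bases open to counting), Cd79b, Irf4, Siglecf and Ccr3.

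What could be counted differed between members. For Il6, Il6ra, Il6st and Osmr every exonic base belonged to a single transcript. For Osm it was 1499 of 2272 bases, including 482 of 792 coding bases. In Lifr, 6200 of 10330 bases could be counted, but only 8 of 3287 coding bases, so its counts lie almost wholly in untranslated bases. Clcf1 and Il11ra1 had 0 coding bases open to counting: all Clcf1 counts lay on noncoding transcripts (96.3% on the retained-intron Clcf1-003), as did 75.3% of those of Il11ra1 (55.1% on the retained-intron Il11ra1-010). Lif was counted over 552 of 4350 bases and Il11 over 226 of 1319. The low counts of these 4 genes are therefore not a measure of low expression.

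**Figure D4:**
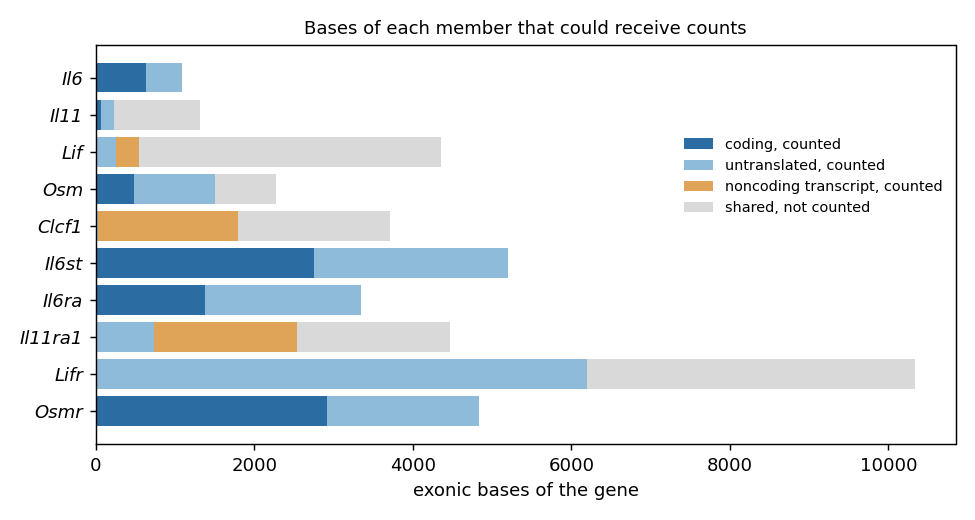
Exonic bases of each member, split into coding bases, untranslated bases and bases of noncoding transcripts that belong to a single transcript and were counted, and bases shared between transcripts, which received no counts (grey). Il6, Il6ra, Il6st and Osmr have no grey part, and Clcf1, Il11ra1 and Lifr have almost no counted coding bases.

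The member transcripts that carry at least 10% of the counts of their gene were Clcf1-003, Il11ra1-010, Il11ra1-003, Il11ra1-008, Lif-001, Lif-002, Lifr-203, 1 of the Il11 transcripts and the single counted transcripts of Il6, Il6ra, Il6st, Osm and Osmr. Of these, Osm-001 and Il6-201 were called higher in elderly libraries. Il11ra1-003, a coding transcript counted in untranslated bases, had 12 and 20 counts in mature and 5 and 9 in elderly libraries, at a log2 fold change of -1.32 (edgeR adjusted p = 0.666). Lif-002, a processed transcript, had 1 and 4 counts in mature and 8 and 10 in elderly libraries, at 1.67 (edgeR adjusted p = 0.737). Lif-001, which encodes the protein, had 1 and 7 against 2 and 5 counts, at -0.35, and did not pass.

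Other ligands and receptors of the family were counted at low levels. Of 11 listed, 9 were tested and 0 passed in edgeR or DESeq2 (1 at an unadjusted p under 0.05), at a median log2 fold change of 0.34. Both elderly libraries lay above both mature ones for 2 of them, beside 22% of all genes tested, and below for 1, beside 18.9%. Cntfr, the CNTF receptor chain, had 9 and 3 counts in mature and 6 and 13 in elderly libraries, and Ctf1, which encodes cardiotrophin-1, had 22 and 25 against 10 and 46 counts. Il27ra had 14 and 10 against 38 and 17 counts (log2 fold change 1.10, edgeR adjusted p = 0.631), and Il11ra2 had 0 counts in every library. Ebi3, a secreted chain of interleukin-27 and interleukin-35, was singled out after its values were seen, with 8 and 10 counts in mature and 36 and 53 in elderly libraries (log2 fold change 2.09, SE 0.53, edgeR adjusted p = 0.0713). It was called with the robust fit, without a filter, with the replicate block and with protein-coding genes only.

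Downstream of the receptors, 1 of 19 signal transducers passed, and it was lower. Stat5a, a transcription factor of the JAK pathway, had 534 and 596 counts in mature and 306 and 311 in elderly libraries, at a log2 fold change of -1.03 (SE 0.24, edgeR adjusted p = 0.0460), and 0.423% of all genes tested were called lower. The call was lost when library size alone was used for scaling. Stat3, which carries the main signal of gp130, had 134 and 105 CPM in mature and 96.4 and 66.0 CPM in elderly libraries, and the difference did not pass (-0.56, SE 0.23, adjusted p = 0.360). Jak1, the kinase that gp130 most depends on, had 775 and 656 against 693 and 791 CPM (0.05, adjusted p = 0.958). Ptpn11, the phosphatase SHP2, which docks on gp130, had 17.9 and 16.5 against 16.5 and 14.6 CPM, and Jak2, with only 83 bases open to counting, had 3.98 and 3.19 against 3.52 and 1.82 CPM.

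Of 15 feedback inhibitors tested, 0 passed in edgeR or DESeq2 and 0 had an unadjusted p under 0.05, at a median log2 fold change of -0.01. Socs3, which binds gp130 and blocks its kinases, was abundant at 33692 and 20459 counts in mature and 20375 and 33600 counts in elderly libraries. Its ages overlapped (-0.22, SE 0.24, edgeR adjusted p = 0.830). The 5 receptor-shedding genes gave 0 calls in both tools, with 1 at an unadjusted p under 0.05. Adam10 and Adam17, the proteases that release the IL-6 receptor, had log2 fold changes of 0.00 (SE 0.18) and -0.08 (SE 0.30), with 95% intervals from -0.40 to 0.40 and from -0.74 to 0.58.

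Of 28 STAT3 target genes listed, 26 were tested. Of these, 4 were called higher in elderly libraries and 0 were called lower, beside 1.94% and 0.423% of all genes tested. By log2 fold change alone 10 lay above 0 and 16 below, at a median of -0.17. Both elderly libraries lay above both mature ones for 7 of them, beside 22% of all genes, and below for 9, beside 18.9%. Lrg1, a secreted acute-phase glycoprotein that neutrophils also make, had 210 and 245 counts in mature and 672 and 710 in elderly libraries (1.44, SE 0.24, edgeR adjusted p = 0.0090). Ccnd1, the cell cycle regulator cyclin D1, had 84 and 110 against 284 and 386 counts (1.60, SE 0.27, adjusted p = 0.0107). Birc5, which encodes survivin and is made in dividing cells, had 26 and 16 against 78 and 111 counts (1.97, SE 0.41, adjusted p = 0.0274). Icam1, an adhesion receptor for leukocytes, had 4139 and 4521 against 7109 and 10840 counts (0.85, SE 0.18, adjusted p = 0.0324). The neutrophil and erythroid sums were higher in the same libraries as these 4 genes, and their part in the values was not tested. Without elderly replicate 1 or elderly replicate 2, edgeR called 0 of the 5 pathway genes that passed, as it called 0 of all genes, whereas DESeq2 called Ccnd1, Icam1 and Lrg1 in both. When each library was left out in edgeR, the log2 fold change ran from 1.63 to 2.37 for Birc5, 1.42 to 1.78 for Ccnd1, 0.78 to 0.94 for Icam1, 1.26 to 1.63 for Lrg1 and -1.24 to -0.82 for Stat5a. Without mature replicate 1 edgeR called only Birc5 of these 5, and without mature replicate 2 only Ccnd1 and Lrg1.

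**Figure D5:**
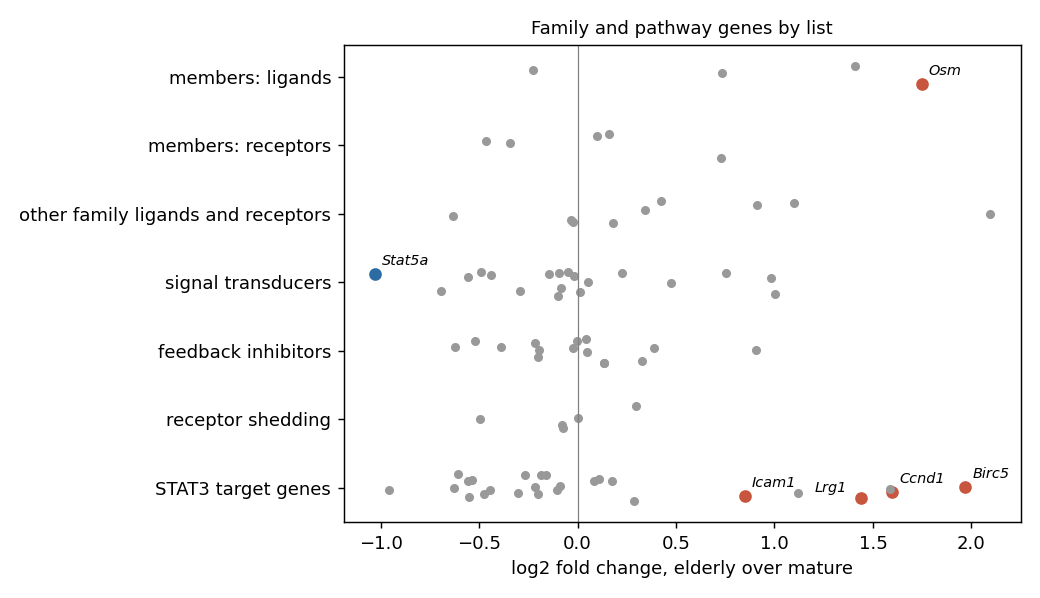
Log2 fold change, elderly over mature, of every tested member and pathway gene, in rows by list with points spread vertically for legibility. Red and blue points with names are genes called higher and lower at an adjusted p under 0.05, grey points were not called, and most grey points lie between -1 and 1.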

How the data were processed

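RNA of 4 libraries, 2 mature and 2 elderly, was grouped by the titles of the sample labels. The authors removed adapters with CutAdapt, mapped reads with HISAT2 to mm9 (NCBI Build 37), and deposited raw featureCounts counts per Ensembl transcript, without normalization. The kit keeps strand. The strand setting and the handling of shared bases are not given in the sources used here. The methods name samples made from total RNA only by abbreviations, which include an age in weeks. Whether any of these 4 libraries is among them is not stated, while the labels give polyA RNA. A difference in RNA selection between the ages was not tested. Transcripts were matched to GENCODE M1, except 388 with 0.0785% to 0.0888% of the counts. The 25621 transcripts that share every base with others received 0 counts throughout, so only unshared bases were taken as open to counting.

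Counts were summed per gene, and genes with a sum above 2 were kept. edgeR 4.0.16 (R 4.3.3, limma 3.58.1) normalized by TMM, with factors from 0.970 to 1.06, and compared ages with its quasi-likelihood test (2-sided, no covariate), adjusted by Benjamini-Hochberg over all genes tested. A gene was called at an adjusted p under 0.05. The same test was run on transcripts. Standard errors are the log2 fold change over the root of F, and intervals are 95%. The sum filter and TMM follow the study, whose exact test at a dispersion of 0.2 was an alternative, as were DESeq2 1.42.0, a robust fit, other filters and scalings, the replicate number as a block, protein-coding genes only and leaving out each library. DESeq2 without each elderly library, marker sums without their most abundant gene and the Il6st to Lifr ratio by longest transcript were added after the data were seen. The sample titles name numbered mice, whereas the methods describe RNA pooled per group. Whether the 2 libraries of an age are separate mice or separate pools is not stated, so p-values measure the spread between 2 libraries per age. The libraries of an age were not 1 library deposited again, since chi-square over its degrees of freedom was 16.0 between mature and 34.2 between elderly replicates.

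All 10 members were named, of the other lists the called genes (at most 6 a list) and some genes set by name. Some genes of these lists are not reported here. Members, lists, rules and most tests were chosen with earlier results of these data known.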

Additional observations from a re-analysis of the deposited data

How the results depend on the processing

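The number of members called was 1 (Osm) as reported and 2 (Osm and Il6) with DESeq2, the robust fit, no filter, the replicate block or protein-coding genes only. It was 0 with the exact test at a dispersion of 0.2 (Osm adjusted p = 0.299) and 0 when an absolute log2 fold change over 2 was also asked, and it ran from 0 to 2 when each library was left out. Pathway genes called went from 5 to 0 with the exact test, 8 without a filter, 8 with the replicate block and 0 with the fold threshold, and ran from 0 to 2 when libraries were left out in edgeR, against 5 and 6 with DESeq2 without elderly replicate 1 and 2. Member transcripts called went from 2 to 0 with the exact test, 1 with filterByExpr, 1 with library size alone, 1 with protein-coding genes only and 0 with the fold threshold, ran from 0 to 2 when libraries were left out, and were 1 with DESeq2 without elderly replicate 1 and 1 without elderly replicate 2. Over the whole table the count of 524 became 208 with the exact test, 879 with the robust fit, 1084 without a filter, 1276 with the replicate block, 209 with the fold threshold and 0 to 521 when libraries were left out. DESeq2 called 319 genes without elderly replicate 1 and 422 without elderly replicate 2. The cause of these differences was not tested. Without 1 elderly library, the lone sample is assumed to vary like the mature ones.

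The log2 fold change of Osmr ran from -0.014 (without elderly replicate 2) to 0.23 when libraries were left out, that of Lif became -0.0066 without mature replicate 1 and reached 2.35 without mature replicate 2, and neither was called in any fit. Osm stayed between 1.62 and 1.86, and Il6ra between 0.66 and 0.80. With the length of the longest transcript, the level per kilobase fell to 234 for Lifr, 2.35 for Clcf1 and 0.186 for Lif.

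The labels number the replicates without saying that a number marks a shared batch. The deviations of same-numbered libraries had a correlation of 0.0487 over 12087 genes. Whether same-numbered libraries shared a batch was not tested. With the replicate block Il6 had an edgeR adjusted p of 0.0014 and passed, and Osm passed as well. The counts limit Lif, with at most 15 in a library, and Il11, with 2 in all, and the parts of depth and of the few bases open to counting were not tested.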
